A study of Oryza sativa with 81 samples.

Results

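A set of 117 rice genes was high in young seedlings and in filling panicles and low in young panicles, the stage between them. The genes were chosen from 38600 gene models by their CPM (counts per 1000000 counts of the library, a total that leaves out a group of identifiers described below) averaged over the 27 libraries of each tissue. A gene was taken when its seedling and filling panicle means lay within 3-fold of each other and the lower of these, plus 0.1 CPM, was at least 8 times the young panicle mean plus 0.1 CPM. All 117 genes that met this rule were kept. The tissue levels below therefore describe the choice and carry no test, whereas differences between lines within a tissue were not used by it and were tested. The same rule found 671 genes that were high in both panicle stages and low in seedlings, and 74 that were high in seedlings and young panicles and low in filling panicles.

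A young rice panicle is an inflorescence in which branches, spikelets and floral organs are still being formed, largely enclosed by leaf sheaths. A filling panicle has emerged, carries mature green hulls and holds grains that take up assimilate, and a seedling is made mostly of growing leaves and roots. In an F1 hybrid the 2 parental genomes share 1 nucleus, and the usual yardstick for its expression is the mid-parent value, the mean of the 2 parents.

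The study profiled 5 F1 hybrids and their 4 parents in each tissue with 3 libraries per line and tissue, 81 libraries in all. Replicates carry the numbers 1 to 3 for seedlings, 4 to 6 for young panicles and 7 to 9 for filling panicles. WY998 came from WFB and R998, WY308 from WFB and R308, RY998 from RFB and R998, RY308 from RFB and R308, and WR from WFB and RFB, so every hybrid shares each parent with another. The plants were grown in a field and total RNA was depleted of ribosomal RNA before stranded library construction. The labels give neither the age of the plants nor whether the 3 libraries came from separate plants, so p-values measure the spread between these libraries, which may be technical.

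Libraries held 29054241 to 45765805 counts. The 114 gene models whose identifiers begin with block 00, which carry no chromosome number, took 43.8% to 56.6% of the counts in seedlings. Their share was 3.94% to 6.82% in young panicles, and filling panicles had 5.89% to 11.1%. They were left out of every total. The remaining counts were 13433773 to 20149499 in seedlings, 30633264 to 39807042 in young panicles, and for filling panicles 27270037 to 41754366, so low values carry more counting error in seedlings. When block 00 was kept in the totals, 115 genes met the rule and only 66 of them were among the 117, so the make-up of the set rests on that choice. The identifiers were matched to none of the 39387 entries of the gene name table at hand, so the genes are given by identifier, no function is assigned to them, and tissue marker genes could not be read. As a check of the labels of the hybrids, 18 genes were above 5 CPM in R998 and below 0.1 CPM in the other 3 parents in each tissue. No gene was found in this way for WFB, RFB or R308, so the check only tells the hybrids of R998 from the other hybrids. In filling panicles their median level was 51.0% of that in R998 for WY998 and 45.3% for RY998, and at most 0.220% for WY308, RY308 and WR.

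The levels of the set in CPM were far apart between tissues by construction. The median of the member means was 8.92 CPM in seedlings (range 0.841 to 285), 0.241 CPM for young panicles (0.00203 to 16.1) and 7.67 CPM for filling panicles (1.01 to 790.4). In young panicles 89 members averaged under 1 CPM and 38 under 0.1 CPM, while 63 had a count in all 27 libraries and 18 had none in 14 or more of them. For 94 members the highest young panicle library was below the lowest library of both other tissues. The set was thus made of genes at trace level in young panicles and of genes that were reduced there and still readily counted.

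The 4 members with the highest lower mean belonged to the second kind. OsR498G1220845200.01 had a lowest, median and highest library of 103, 276 and 409.9 CPM in seedlings, 1.82, 9.31 and 29.2 CPM in young panicles, and in filling panicles 364, 745 and 1490.05 CPM. OsR498G1119321500.01 had 154, 207 and 318 CPM in seedlings, 1.18, 3.14 and 20.6 CPM in young panicles, and in filling panicles 241, 562 and 1765 CPM. For both genes the young panicle libraries stood below all others, filling panicles were above seedlings in the median, and the ranges of seedlings and filling panicles overlapped. OsR498G0409393500.01 had 74.5, 218 and 387 CPM in seedlings, 7.46, 14.6 and 26.5 CPM in young panicles, and in filling panicles 93.7, 145 and 205 CPM. OsR498G0612272400.01 had 72.5, 119.9 and 232 CPM in seedlings, 1.73, 4.11 and 13.6 CPM in young panicles, and in filling panicles 63.4, 172 and 311 CPM. In these 2 genes the ranges of seedlings and filling panicles overlapped as well, and the young panicle libraries stood below them all. Per kilobase of length, the mean of OsR498G1220845200.01 was 299 CPM in seedlings and 881 CPM in filling panicles, against 133 and 375 CPM for OsR498G1119321500.01.

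**Figure D1:**
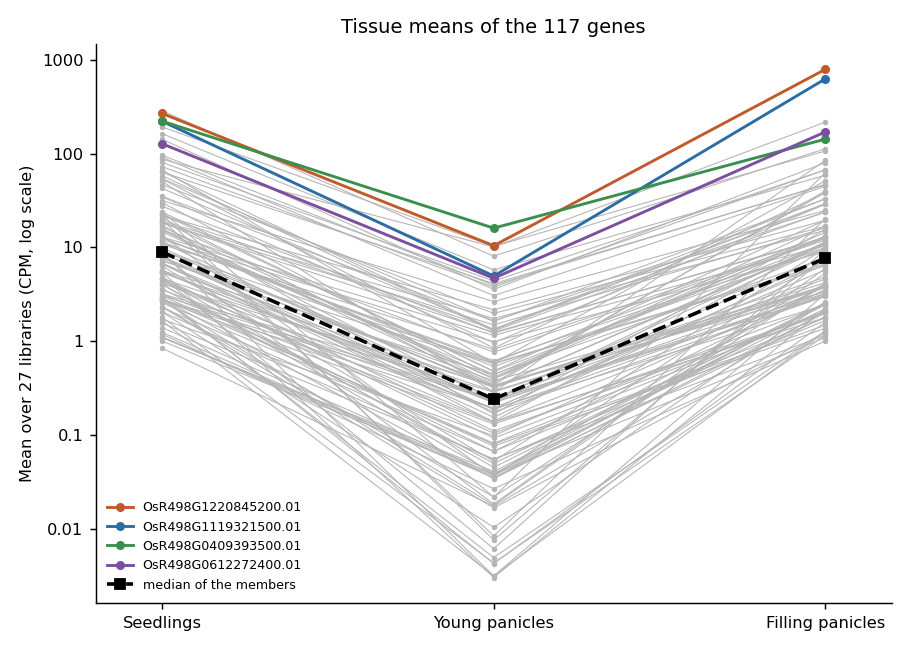
Mean CPM over 27 libraries (log scale) of each of the 117 genes in seedlings, young panicles and filling panicles; grey lines are single genes, coloured lines the 4 genes with the highest lower mean, and the dashed line the median of the genes. The median lies at 8.92 CPM in seedlings, drops to 0.241 CPM in young panicles and stands at 7.67 CPM for filling panicles.

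With block 00 left out of the totals, the set leaned towards seedlings between its 2 high tissues. The higher mean was in filling panicles for 35 members and in seedlings for 82. The median ratio of filling panicle to seedling mean was 0.776. Block 00 took 43.8% to 56.6% of the counts in seedlings and 5.89% to 11.1% in filling panicles. Leaving it out raised seedling values more, so the lean depends on that choice. It was not computed with block 00 kept. The means of 79 members lay within 2-fold. The highest ratios were those of OsR498G1220845200.01 (2.95) and OsR498G1119321500.01 (2.83), and the lowest those of OsR498G1019230700.01 (0.352) and OsR498G0612866100.01 (0.355). The depth of the trough varied as well. The lower of the 2 high means exceeded the young panicle mean by a median of 13.4-fold after 0.1 CPM was added to both, by 20-fold or more in 35 members and by 201-fold at most.

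The genes lowest in young panicles relative to the other tissues were at or near the counting limit there. OsR498G0916897000.01 had a lowest, median and highest library of 2.74, 17.0 and 59.6 CPM in seedlings, 0, 0 and 0.0588 CPM in young panicles, and in filling panicles 0.575, 17.7 and 80.1 CPM. OsR498G0100997400.01 had 0.0582, 6.85 and 34.7 CPM in seedlings, 0, 0 and 0.0303 CPM in young panicles, and in filling panicles 0.239, 1.99 and 20.3 CPM. Both varied widely within each high tissue, which the comparison of lines below takes up.

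The limits passed between genes of nearly equal ratio. OsR498G0510024500.01 met the 8-fold limit at 8.01-fold, with means of 4.11 CPM in seedlings, 0.334 CPM in young panicles and, in the filling stage, 3.37 CPM. OsR498G0102639100.01 missed it at 7.94-fold, with 1.59, 0.0579 and 1.15 CPM in the same order. OsR498G0100355100.01 missed the 3-fold limit at a seedling to filling ratio of 3.02, with means of 8214 CPM in seedlings, 50.7 CPM in young panicles and, in the filling stage, 2720.4 CPM. With limits of 6-fold and 12-fold, 160 and 64 genes met the rule.

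The members were spread over the genome. Each of the 12 numbered blocks of identifiers held 5 to 18 members, between 0.187% of the models in block 8 and 0.556% of those in block 10. In 4 pairs the members were next to each other in the order of identifiers, among them OsR498G0510024500.01 and OsR498G0510024700.01, and in another 3 pairs 1 gene model lay between them. Their median length was 1385 bases (quartiles 1033 and 1819), against 1215 bases (669 and 1783) for all gene models with a length.

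The summed level of the 117 genes differed between lines in a tissue-dependent way. In seedlings the hybrid line means lay between 3149 CPM (WR) and 3462 CPM (RY998), and the parent line means between 3435 CPM (WFB) and 3828 CPM (R308). Single libraries spanned 2901 to 4166 CPM, and those of hybrids and parents overlapped. In young panicles R308 stood at 201 ± 20.7 CPM and WR at 88.8 ± 4.5 CPM (SD, n = 3 each), with line means of 117 to 163 CPM in the other 7 lines. All 3 WR libraries were below every other young panicle library. In filling panicles WR averaged 4336 ± 513 CPM, against 3141 ± 64.1 CPM in its parent WFB and 3328 ± 254 CPM in its parent RFB (SD, n = 3 each). The lowest WR library, at 3866 CPM, was above the highest library of these parents, at 3543 CPM. By line mean of the sum WR was thus the lowest in seedlings and young panicles and the highest in filling panicles. Its distance from WY308, the next line in both high tissues, was smaller than the spread between libraries. The sums weigh abundant genes most. The 4 members with the highest lower mean gave 19.3% to 29.1% of a library's sum in seedlings and 18.3% to 37.6% in young panicles. In filling panicles they gave 26.8% to 58.1%. Taken gene by gene, with the scaled CPM used below, WR was the highest line in filling panicles for 36 of the 117 genes. It was the lowest in seedlings for 18. Shares over all genes tested were not taken for single lines.

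2 filling panicle libraries stood apart from their own lines. WY308 replicate 9 summed to 6526 CPM, against 2696 and 3750.0 CPM in the other WY308 libraries. R998 replicate 9 summed to 5178 CPM, against 2892 and 3046 CPM in the other R998 libraries. Without WY308 replicate 9, 111 genes met the rule and 110 of them were among the 117, and without R998 replicate 9 all 116 that met it were. In bulk tissue a smaller share of cells that express a gene and less RNA per cell cannot be told apart.

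**Figure D2:**
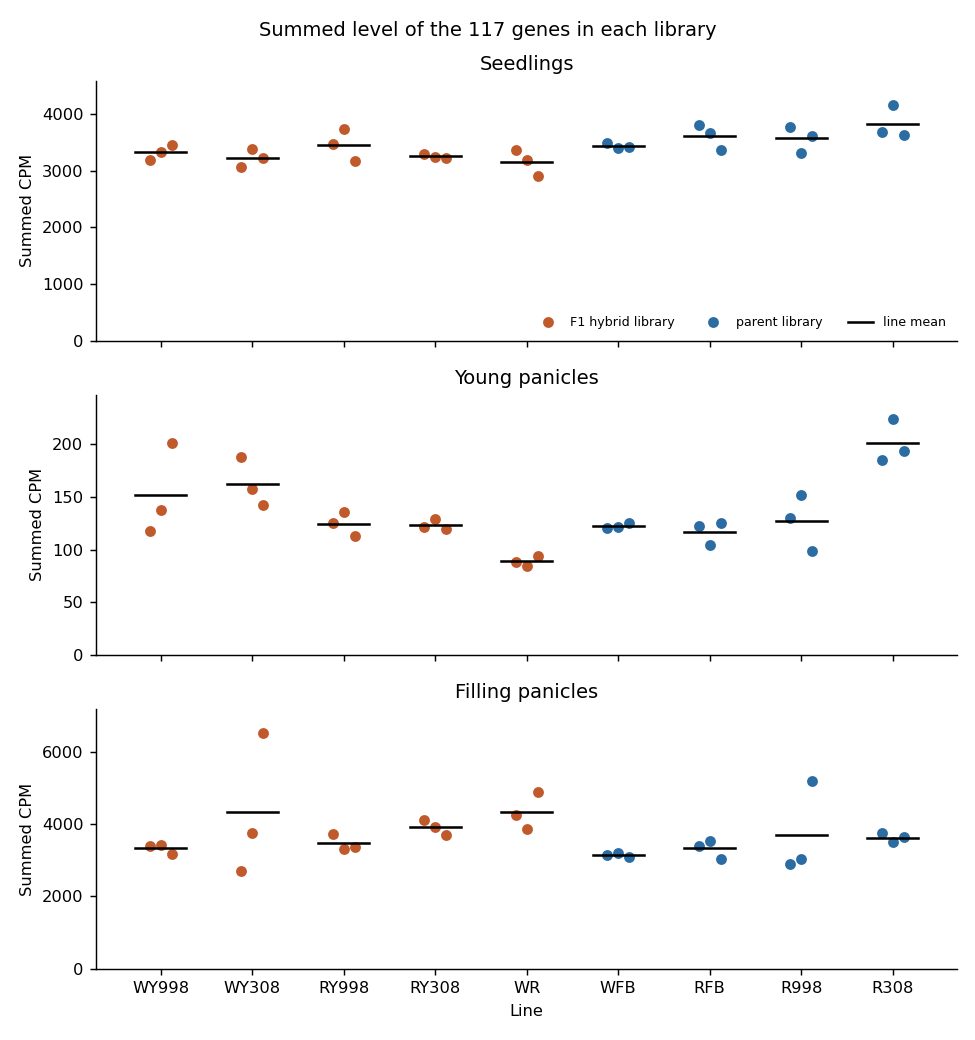
Summed CPM of the 117 genes in each library (points, hybrids and parents in different colours; black bars are line means of 3 libraries) for seedlings, young panicles and filling panicles, each axis starting at 0. WR lies lowest in young panicles at 88.8 CPM and R308 highest at 201 CPM, and 1 library each of WY308 and R998 lies far above its line in filling panicles.

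Differences among the 9 lines were tested for each gene with edgeR's quasi-likelihood test, with p-values adjusted by Benjamini-Hochberg over all genes tested in the tissue and called under 0.05. From here on single-gene levels are CPM scaled by TMM, which corrects for library composition. The lines differed in 85 of 117 members in filling panicles and in 81 of 117 in seedlings, where 52.5% and 40.5% of all genes tested were called. Of the members, 70 passed the filter on low counts in young panicles, and 56 of these were called, where 73.3% of all genes tested were. In young panicles 47 members were too low to be tested.

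The members also varied more than the typical gene. The range between the highest and the lowest line mean had a median of 1.35 on the log2(CPM + 0.5) scale in filling panicles and 1.34 in seedlings, against 0.68 and 0.56 over all genes tested. The spread between libraries of the same line was wider too, with a median SD of 0.38 in filling panicles and 0.36 in seedlings on the same scale, against 0.22 and 0.20 over all genes tested.

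The largest ratios between lines belonged to genes with few or no counts in some lines, and the same lines were at or near 0 in both high tissues. OsR498G0815040500.01 was expressed in R308 and its hybrids. In seedlings its level in the 3 libraries was 12.5, 5.59 and 13.6 CPM in WY308, 7.499, 6.9997 and 8.30 CPM in RY308, and 18.0, 13.98 and 20.4 CPM in R308. No count was found in any library of WFB, RFB or R998, so that R308 was at least 277-fold higher than WFB, where 3 counts over the libraries of WFB set the limit. WY998, RY998 and WR had at most 0.309 CPM. In filling panicles its level was 8.29, 6.36 and 5.74 CPM in WY308, 2.15, 1.57 and 1.89 CPM in RY308, and 12.3, 9.68 and 11.0 CPM in R308, with at most 0.193 CPM in any library of the other lines. The difference among lines had an adjusted p of 7.74e-12 in filling panicles and 2.50e-11 in seedlings in edgeR's test.

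OsR498G0612834800.01 also had its highest line mean in R308. It had no count in the 3 libraries of R998 in either tissue. In seedlings R308 had 4.09, 4.73 and 7.18 CPM, at least 77.4-fold above R998, and the R998 hybrids had intermediate levels of 1.25, 0.785 and 1.001 CPM in WY998 and 0.565, 0.559 and 0.909 CPM in RY998. In filling panicles R308 had 9.35, 4.27 and 3.97 CPM, at least 196-fold above R998, and WY998 had 0.881, 1.43 and 1.95 CPM. The adjusted p in edgeR's test was 5.49e-08 in filling panicles and 6.02e-07 in seedlings.

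The 2 kinds of parent were then compared, WFB and RFB on one side of the 4 factorial crosses and R998 and R308 on the other. In filling panicles 57 members differed, 23 higher and 34 lower in WFB and RFB, where 38.7% of all genes tested were called, 18.7% higher and 20.0% lower. In seedlings 51 members differed, 23 higher and 28 lower, where 26.8% were called, 14.2% higher and 12.6% lower. Members called in both tissues numbered 35, of which 13 were higher in both, 18 lower in both and 4 opposite. Of the 21157 genes tested in both tissues, 3160 were called in both, 560 of them with opposite signs.

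Among called members with at least 5 CPM in the higher group and no overlap between the libraries of the 2 sides, those with the lowest log2 differences were the same in both tissues. OsR498G1222150400.01 had a lowest, median and highest library of 0.151, 0.304 and 0.43 CPM in WFB and RFB and 13.0, 21.1 and 74.1 CPM in R998 and R308 in filling panicles. The log2 difference was -6.63 (SE 0.60, adjusted p = 3.41e-09 in edgeR's test), and in seedlings it was -3.76 (SE 0.46, adjusted p = 9.68e-07). In seedlings the libraries of WFB and RFB reached 2.56 CPM at most, and those of R998 and R308 began at 4.16 CPM. OsR498G0917236300.01 had 0.393, 0.598 and 0.965 CPM in WFB and RFB and 4.75, 6.56 and 9.96 CPM in R998 and R308 in filling panicles. In seedlings it had 1.46, 2.11 and 3.49 CPM in WFB and RFB and 11.3, 23.3 and 28.8 CPM in R998 and R308. Its log2 difference was -3.49 (SE 0.24, adjusted p = 1.48e-10 in edgeR's test) in filling panicles and -3.32 (SE 0.23, adjusted p = 9.28e-11) in seedlings. As the criteria required, the 2 sides did not overlap in either gene or tissue. In WR, whose parents are both on the low side, these genes had means of 0.0476 and 0.409 CPM in filling panicles.

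By the same criteria the members with the highest log2 differences were not the same in both tissues. In filling panicles OsR498G0510625500.01 had a lowest, median and highest library of 64.1, 80.5 and 92.8 CPM in WFB and RFB and 2.26, 12.8 and 26.9 CPM in R998 and R308, a log2 difference of 3.32 (SE 0.22, adjusted p = 1.15e-10 in edgeR's test). OsR498G0510024700.01 had 5.40, 8.11 and 9.31 CPM in WFB and RFB and 3.09, 3.59 and 4.25 CPM in R998 and R308, a log2 difference of 1.12 (SE 0.14, adjusted p = 9.02e-07). In seedlings OsR498G0100997400.01 had 7.49, 17.3 and 33.6 CPM in WFB and RFB and 0.0593, 0.917 and 5.78 CPM in R998 and R308, a log2 difference of 4.13 (SE 0.63, adjusted p = 3.98e-06). OsR498G0100990200.01 had 6.85, 7.01 and 8.01 CPM in WFB and RFB and 0.45, 2.14 and 3.59 CPM in R998 and R308, a log2 difference of 2.003 (SE 0.17, adjusted p = 1.63e-09). The lack of overlap between the 2 sides in these 4 comparisons follows from the criteria.

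**Figure D3:**
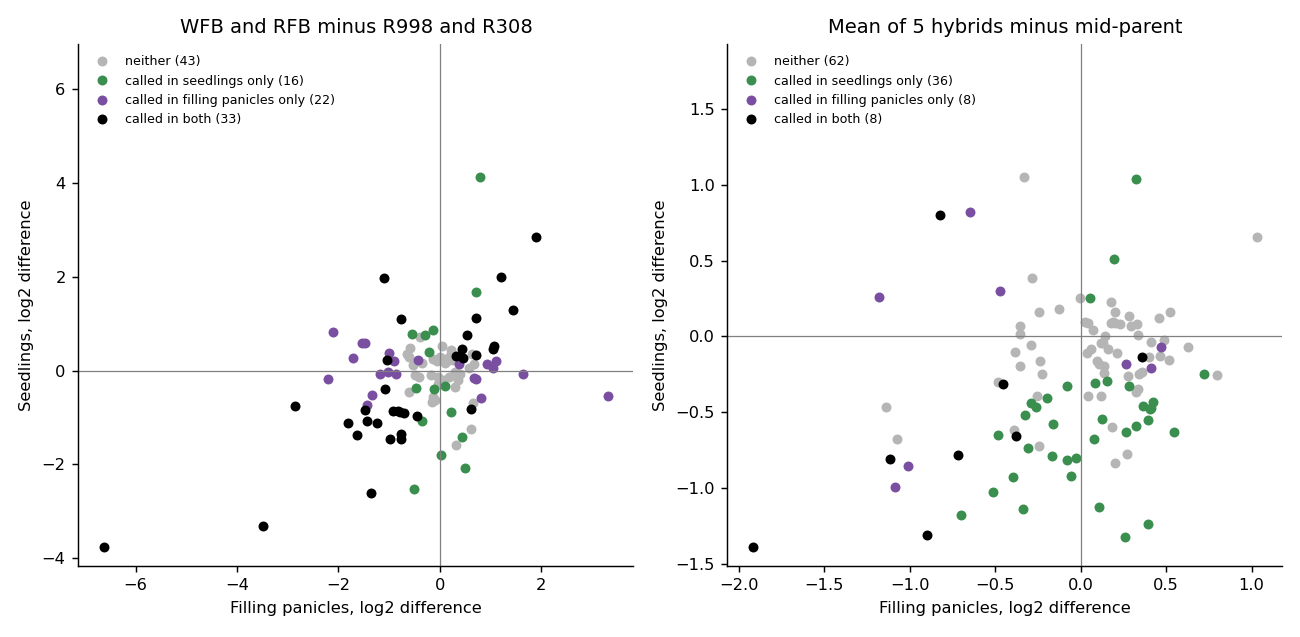
Log2 difference in filling panicles (horizontal) and seedlings (vertical) for 114 of the 117 genes, between WFB and RFB and R998 and R308 (left) and between the mean of the 5 hybrids and mid-parent (right); colours give where edgeR's test called the gene, and 3 genes with a line at 0 are not drawn. On the right, most points called in seedlings lie below 0 on the seedling axis and on both sides of 0 on the filling panicle axis.

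Hybrids were set against the arithmetic mean of their own parents, and the log2 deviation was averaged over the 5 crosses, which share the 4 parents. In seedlings 45 of 117 members deviated, 4 higher and 41 lower than mid-parent, where 20.3% of all genes tested were called, 9.1% higher and 11.2% lower. The members' median deviation was -0.25, against 0.00 over all genes tested. With a geometric mid-parent, the mean of the parents on the log scale, 39 members were called, 10 higher and 29 lower. Leaving out single libraries gave 37 to 52 calls, of which 34 to 45 were lower. The members' spread between libraries of a line was wider than that of the typical gene, as given above, and its part in this result was not tested.

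Another view of the same libraries gave the highest of the 9 line means to a parent for 88 of 117 members in seedlings (75.2%), against 56.6% of all genes tested. The lowest line mean was a parent's for 53 members (45.3%), against 60.7% of all genes tested. Filling panicles went the other way. There the highest line mean was a parent's for 49 members (41.9%), against 52.4% of all genes tested. The lowest was a parent's for 74 members (63.2%), against 49.2%. In seedlings R308 was the highest line for 29 members, R998 for 22, RFB for 21 and WFB for 16, and WY998 for none. Shares over all genes tested were not taken for single lines, so these counts are not read as particular to the set.

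Of the called members with the same sign in all 5 crosses, the 2 furthest below mid-parent in seedlings were high in at least 1 parent and low in most hybrids. OsR498G1222150400.01 had a lower mean deviation of -1.39 (SE 0.31, adjusted p = 0.00232 in edgeR's test), but its deviation in WR was 0.28. OsR498G0101694700.01 had a lowest, median and highest library of 3.78, 5.64 and 21.6 CPM in the 15 hybrid libraries and 4.63, 16.6 and 60.9 CPM in the 12 parent libraries, a mean deviation of -1.33 (SE 0.25, adjusted p = 7.49e-04 in edgeR's test). By line, R308 averaged 49.6 ± 18.6 CPM, R998 25.1 ± 10.4 CPM, WFB 13.7 ± 5.57 CPM and RFB 7.55 ± 4.22 CPM (SD, n = 3 each). The hybrid line means lay between 5.93 CPM in WY308 and 14.6 CPM in WY998, near or below the lower parents. OsR498G1019228500.01 had 5.65, 9.94 and 30.3 CPM in hybrids and 5.60, 24.9 and 84.6 CPM in parents, a mean deviation of -1.31 (SE 0.34, adjusted p = 0.00936). Hybrid and parent libraries overlapped for OsR498G0101694700.01 and OsR498G1019228500.01, and single libraries of WFB, RFB and R308 were several times above the others of their line for OsR498G1019228500.01.

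2 of the 4 members above mid-parent in seedlings had the largest deviations of that sign. OsR498G0510625500.01 had 38.3, 110.2 and 224 CPM in hybrids and 28.3, 62.1 and 108 CPM in parents, a mean deviation of 0.80 (SE 0.14, adjusted p = 3.96e-04 in edgeR's test). OsR498G0305941000.01 had 0.883, 4.17 and 10.9 CPM in hybrids and 0, 2.11 and 3.70 CPM in parents, a mean deviation of 1.04 (SE 0.33, adjusted p = 0.0312). The adjusted p of the second gene lay between 0.0109 and 0.0777 when single libraries were left out, above 0.05 in 8 cases.

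In seedlings the 4 factorial crosses gave few calls, and WR gave more. Median deviations of the members were -0.22 in WY998, -0.31 in WY308, -0.18 in RY998, -0.24 in RY308 and -0.18 in WR, and the medians over all genes tested were between -0.01 and 0.01. In WY998 edgeR's test called 0 members, against 0.262% of all genes tested (0.0919% higher and 0.17% lower), with 16 at an unadjusted p under 0.05, 2 called by DESeq2 and 4 with a geometric mid-parent. In WY308 it called 4, all lower, against 0.795% (0.17% higher and 0.625% lower). In RY308 it called 6, all lower, against 2.29% (1.15% higher and 1.14% lower). In RY998 it called 8, of which 1 was higher and 7 lower, against 4.11% (1.75% higher and 2.36% lower). In WR it called 23, of which 4 were higher and 19 lower, against 15.2% (7.45% higher and 7.72% lower). DESeq2 called 15 members in WY308, all lower, and 14 in RY308, of which 1 was higher and 13 lower. With a geometric mid-parent edgeR's test called 3 higher and 6 lower in WY308, 4 higher and 5 lower in RY308, and 5 higher and 7 lower in RY998. Leaving out 1 library moved these counts by over 1.5 times in each cross. The count for WY308 was 1, 1 and 0 without its replicates 1, 2 and 3, and that for RY308 was 3, 2 and 3 without its own. The count for RY998 was 3, 2 and 4 without its replicates 1, 2 and 3, and 5 without RFB replicate 2, R998 replicate 1 or R998 replicate 3. The count for WR was 11 without its replicate 1 and 15 without its replicate 3, and that for WY998 was 1 without WY998 replicate 3, RY998 replicate 3 or WFB replicate 1.

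Within crosses OsR498G0510625500.01 was called above mid-parent in RY998 and WR. RY998 seedlings had 180, 224 and 178 CPM, against 61.7, 79.5 and 58.3 CPM in RFB and 102, 108 and 64.2 CPM in R998, a log2 deviation of 1.30 (SE 0.25, adjusted p = 0.00316 in edgeR's test). WR seedlings had 134, 141 and 105 CPM, against 38.4, 28.3 and 62.1 CPM in WFB and 61.7, 79.5 and 58.3 CPM in RFB, a log2 deviation of 1.21 (SE 0.25, adjusted p = 0.00173). In both crosses every library of the hybrid was above every library of its parents. On the lower side, OsR498G0205029100.01 had 61.7, 35.4 and 54.01 CPM in WR, against 147, 116 and 79.1 CPM in WFB and 88.9, 99.8 and 108 CPM in RFB. Its log2 deviation was -1.08 (SE 0.23, adjusted p = 0.00392), and no WR library reached a parent library. OsR498G0100789400.01 had 4.62, 2.12 and 4.24 CPM in RY998, against 6.92, 15.6 and 4.68 CPM in RFB and 36.3, 21.9 and 30.7 CPM in R998.

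The log2 deviation of OsR498G0100789400.01 was -2.40 (SE 0.49, adjusted p = 0.00881), with every RY998 library below the parents, but without RY998 replicate 2 the adjusted p was 0.0709. The lowest called deviations in the R308 crosses were those of genes that R308 expressed strongly. OsR498G1222150400.01 had 1.01, 1.64 and 0.91 CPM in WY308, against 2.56, 0.609 and 0.496 CPM in WFB and 10.7, 23.2 and 27.6 CPM in R308, a log2 deviation of -3.20 (SE 0.62, adjusted p = 0.014 in edgeR's test). OsR498G0101694700.01 had 7.93, 5.22 and 5.49 CPM in RY308, against 5.64, 12.4 and 4.63 CPM in RFB and 60.9, 28.1 and 59.8 CPM in R308, a log2 deviation of -2.197 (SE 0.49, adjusted p = 0.0233). Both hybrids lay within the range of the lower parent, and with a geometric mid-parent the adjusted p was 0.0571 for the first gene and 0.0538 for the second. When single libraries were left out, the first gene lost its call in 3 cases, with an adjusted p of up to 0.119, and the second in 5, with up to 0.136.

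**Figure D4:**
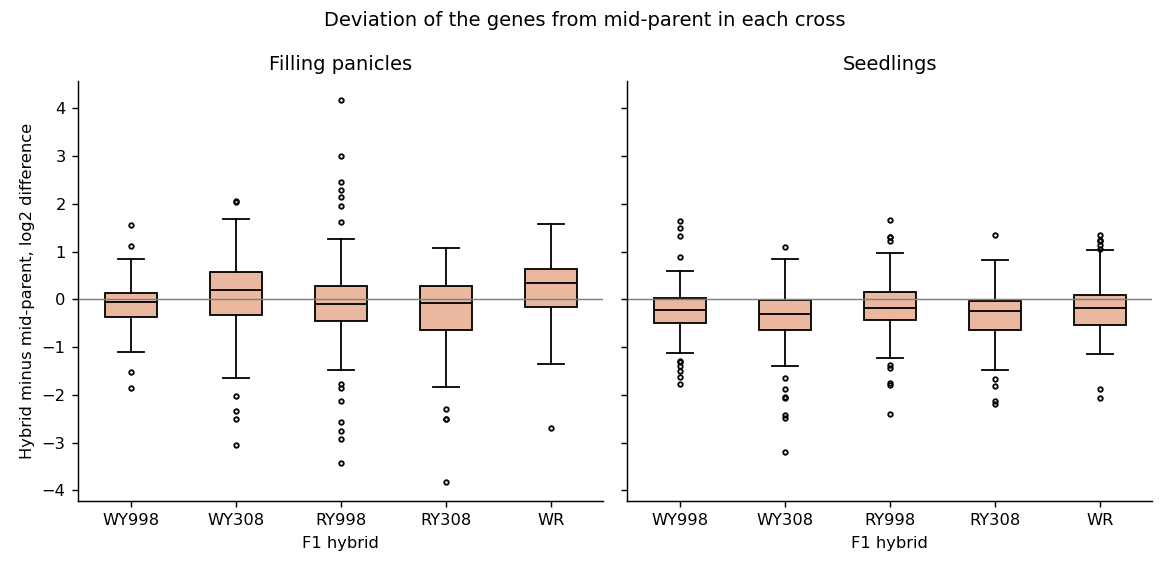
Log2 deviation of 114 genes from the arithmetic mid-parent in each F1 hybrid in filling panicles (left) and seedlings (right); boxes give quartiles and median, whiskers reach 1.5 times the box, and circles are single genes. In seedlings all 5 medians lie below 0, between -0.31 and -0.18, whereas in filling panicles those of WY308 and WR lie above it.

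In filling panicles the mean deviation was called for fewer members, 4 higher and 13 lower than mid-parent, or 17 of 117, where 6.68% of all genes tested were called, 2.08% higher and 4.6% lower. The members' median deviation was 0.10, against -0.03 over all genes tested. Leaving out 1 library moved this count by over 1.5 times in 18 of 27 cases. It was 40 without R998 replicate 9 and 31 without WY308 replicate 7. It was 6 to 11 without any one of replicates 7 or 8 of WY998, WFB or R998, 7 or 9 of RY998 or WR, 7, 8 or 9 of RFB, 8 of WY308, and 7 of RY308 or R308. With a geometric mid-parent 12 of 17 called members were higher and 5 lower, so the balance of directions turned. On the higher side, OsR498G0100990200.01 had a lowest, median and highest library of 2.41, 3.93 and 7.89 CPM in hybrids and 1.05, 3.05 and 4.57 CPM in parents, a mean deviation of 0.47 (SE 0.12, adjusted p = 0.0299 in edgeR's test). OsR498G0408820400.01 had 173, 250.3 and 299 CPM in hybrids and 147, 178 and 278 CPM in parents, a mean deviation of 0.36 (SE 0.11, adjusted p = 0.0496). The call of the second gene was lost under 4 alternatives, with adjusted p up to 0.0781, and when any of 19 of the 27 libraries was left out, with adjusted p up to 0.106. That of the first was lost when any of 8 libraries was left out, with adjusted p up to 0.0865. On the lower side, OsR498G1120215800.01 had a lowest, median and highest library of 0.279, 1.11 and 2.65 CPM in hybrids and 0.11, 1.87 and 4.59 CPM in parents, a mean deviation of -1.09 (SE 0.22, adjusted p = 0.00494 in edgeR's test). OsR498G1222150400.01 deviated by -1.92 (SE 0.46, adjusted p = 0.0053), but its adjusted p was 0.97 with a geometric mid-parent.

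The crosses went different ways in filling panicles. Median deviations of the members were -0.07 in WY998, 0.20 in WY308, -0.10 in RY998, -0.08 in RY308 and 0.33 in WR, against -0.03 to -0.02 over all genes tested. In RY998 edgeR's test called 25 members, 13 higher and 12 lower, against 12.4% of all genes tested (5.77% higher and 6.62% lower). In RY308 it called 17, of which 2 were higher and 15 lower, against 6.18% (1.74% higher and 4.44% lower), but 8 and 10 without its replicates 7 and 8. In WY308 it called 15, of which 7 were higher and 8 lower, against 6.16% (2.55% higher and 3.61% lower), but 3 without WY308 replicate 9, 8 and 9 without WFB replicates 7 and 8, 26 without R998 replicate 9 and 38 without WY308 replicate 7. In WR it called 1, OsR498G0307220700.01, higher, against 1.0% (0.492% higher and 0.511% lower). That count was 10 without R998 replicate 9, which enters only through scaling and the shared spread, 2 without R998 replicate 8, 3 and 4 without WY308 replicates 7 and 9, and 0 without WR or WFB replicates 7 or 9 or any RFB library. In WY998 it called 0, against 0.0991% (0.0198% higher and 0.0793% lower), with 16 at an unadjusted p under 0.05, 1 called by DESeq2 and 4 with a geometric mid-parent. DESeq2 called 24 members in WY308, 15 higher and 9 lower, and 4 in WR, all higher. With a geometric mid-parent 18 members were higher and 3 lower in WY308, and 2 were higher in WR. In WY308 the count was 8 with the replicate block and 6 without R308 replicate 9 and RY308 replicate 8, of which 1 was higher and 5 lower.

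In filling panicles the members separated WY308, RY998 and R308 from the other lines. On the first principal component of the members, which held 41.3% of their variance, the 9 libraries of these 3 lines were positive and the other 18 negative. For 6 members all 9 libraries were above the other 18 and for 4 members all 9 were below, together 8.55% of the set, against 3.02% of all genes tested. In seedlings no member and no gene tested separated the lines in this way, and in young panicles no member did. The 3 lines were picked after their values were seen, so these counts carry no test. RY998 has R998 and RFB as parents, and both of these were on the other side. The genes of R998 described above were present in RY998 filling panicles and nearly absent from RY308, as their labels give. The labels name the tissue and give no finer stage for each line, so differences between lines and differences in stage at sampling cannot be told apart in these values, the deviations of RY998, WY308 and RY308 included.

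OsR498G1221020700.01 showed this division. In filling panicles its level was 18.9, 13.5 and 38.7 CPM in WY308, 15.9, 12.7 and 18.2 CPM in RY998 and 43.4, 18.4 and 11.98 CPM in R308. In every library of the other 6 lines it was between 0.5 and 1.34 CPM. RY998 deviated from its mid-parent by 4.17 on the log2 scale (SE 0.37, adjusted p = 1.26e-08 in edgeR's test) and RY308 by -3.82 (SE 0.44, adjusted p = 7.46e-06). In seedlings all 27 libraries had between 4.21 and 28.9 CPM, with R308 highest at 26.99 ± 1.74 CPM and the 8 other line means between 8.94 and 16.6 CPM.

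Other members had the opposite sign in the same lines. OsR498G1019230700.01 had 0.995, 1.21 and 1.23 CPM in RY998 filling panicles, against 10.8, 11.98 and 9.13 CPM in RFB and 11.1, 21.8 and 9.17 CPM in R998, a log2 deviation of -3.42 (SE 0.47, adjusted p = 5.25e-05 in edgeR's test). OsR498G0916897000.01 had 3.33, 1.88 and 0.668 CPM in WY308, against 29.1, 30.2 and 22.5 CPM in WFB and 7.86, 3.87 and 4.25 CPM in R308, a log2 deviation of -3.05 (SE 0.48, adjusted p = 9.10e-04). Each WY308 library was below every library of both parents for this gene, and each RY998 library below every library of both parents for the first.

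The remaining named deviations in filling panicles were above mid-parent and lost their call when certain single libraries were left out. OsR498G0100497300.01 deviated by 1.52 in WY308 (SE 0.42, adjusted p = 0.0354 in edgeR's test), but its adjusted p reached 0.34 when a library was left out, and its call was also lost with the replicate block and without R308 replicate 9 and RY308 replicate 8, with an adjusted p of up to 0.136. OsR498G0510024700.01 had a log2 deviation of 0.67 in RY308 (SE 0.17, adjusted p = 0.0163), with an adjusted p of up to 0.104 when a library was left out and 0.108 without R308 replicate 9 and RY308 replicate 8. OsR498G0307220700.01 had 54.7, 46.1 and 54.3 CPM in WR, against 36.1, 37.4 and 27.7 CPM in WFB and 32.9, 35.0 and 37.8 CPM in RFB, a log2 deviation of 0.58 (SE 0.13, adjusted p = 0.034). Every WR library was above every library of its parents for this gene, and its adjusted p reached 0.198 when a library was left out and was 0.0503 without a filter on low counts.

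The difference between the tissues was tested directly. The pattern of differences among the 9 lines differed between filling panicles and seedlings for 75 of 117 members, where 39.4% of all genes tested were called. The mean hybrid deviation differed for 27 members, 22 higher and 5 lower in filling panicles than in seedlings, where 15.3% were called, 7.54% higher and 7.77% lower. The median difference was 0.30 on the log2 scale over the members and -0.02 over all genes tested. Leaving out single libraries gave 23 to 37 calls, of which 18 to 32 were higher. The test was not run with a geometric mid-parent, which shifted the balance of directions within each tissue, or with DESeq2's test.

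OsR498G0101694700.01 was among the members with the largest change of hybrid deviation. Its hybrids had a lowest, median and highest library of 25.3, 37.7 and 72.2 CPM in filling panicles against 13.7, 34.9 and 74.6 CPM in parents, a deviation of 0.27, whereas in seedlings it deviated by -1.33 as given above. The difference between the tissues was 1.601 (SE 0.28, adjusted p = 1.19e-04 in edgeR's test). OsR498G0510625500.01 changed the other way. Its deviation was -0.81 in filling panicles and 0.80 in seedlings, a difference of -1.604 (SE 0.22, adjusted p = 2.03e-06).

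By line, the means of OsR498G0510625500.01 in filling panicles were 99.0 ± 7.87 CPM in WY998, 69.7 ± 2.99 CPM in WR and 47.7 ± 21.7 CPM in RY308, but 8.36 ± 1.68 CPM in RY998 and 7.64 ± 5.13 CPM in WY308 (SD, n = 3 each). The parents had 84.8 ± 7.18 CPM in WFB, 74.6 ± 9.34 CPM in RFB, 24.8 ± 2.13 CPM in R998 and 2.58 ± 0.391 CPM in R308 (SD, n = 3 each). In seedlings RY998 had the highest mean of the 9 lines, 194 ± 26.4 CPM, and WFB the lowest, 42.9 ± 17.3 CPM (SD, n = 3 each). The hybrid that was highest in seedlings was among the lowest lines in filling panicles, together with WY308 and R308.

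**Figure D5:**
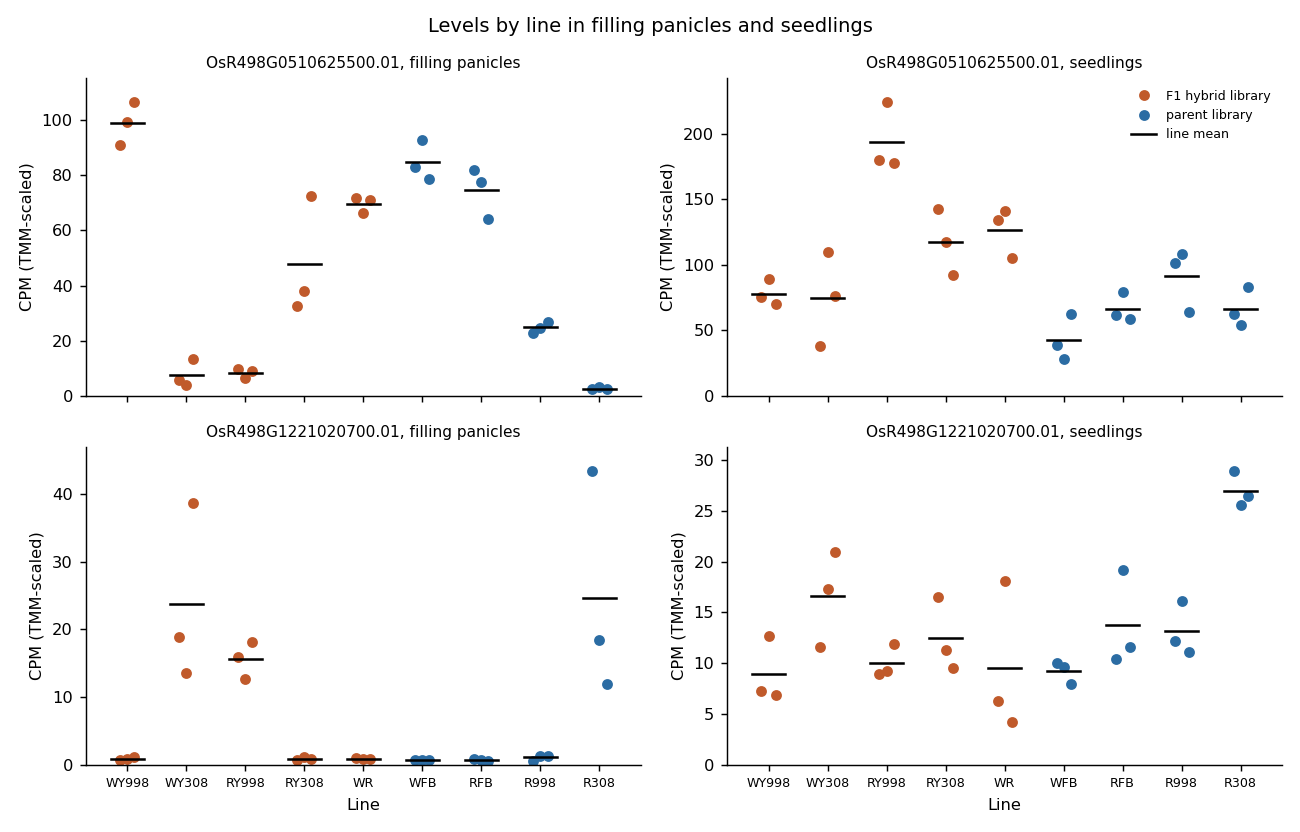
TMM-scaled CPM of 2 members in each library (points, hybrids and parents in different colours; black bars are line means of 3 libraries) in filling panicles (left) and seedlings (right), each axis starting at 0. OsR498G1221020700.01 is at 11.98 CPM or more in the filling panicles of WY308, RY998 and R308 and at 1.34 CPM or less in those of the other lines, and OsR498G0510625500.01 is low in the same 3 lines.

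The residual levels in young panicles, read from the 70 members that could be tested, differed between the parents mostly in one direction. WFB and RFB were higher than R998 and R308 in 3 members and lower in 33, where 49.9% of all genes tested were called, 25.1% higher and 24.8% lower. R308 had the highest of the 9 line means for 37 of these members and WR the lowest for 36. A parent had the highest mean for 77.1% of the 70 members, against 54.4% of all genes tested, and the lowest for 27.1%, against 49.5%. This was the direction of seedlings and not that of filling panicles, as given above. Shares over all genes were not taken for single lines. A gene passed the filter on low counts when a few libraries held it, so a member could enter through the lines where it is high. Without the filter 4 members were higher in WFB and RFB and 36 lower. The part of the filter in the counts of R308 and WR was not tested. None of these counts can be extended to the 47 members that were not tested.

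OsR498G0409393500.01, one of the highest members, had a lowest, median and highest library of 9.25, 10.6 and 13.4 CPM in WFB and RFB and 17.4, 19.9 and 26.3 CPM in R998 and R308 in young panicles, a log2 difference of -0.86 (SE 0.14, adjusted p = 1.74e-05 in edgeR's test). OsR498G0205029100.01 had 1.98, 2.10 and 2.44 CPM in WFB and RFB and 3.45, 5.53 and 7.61 CPM in R998 and R308, a log2 difference of -1.36 (SE 0.15, adjusted p = 1.32e-07). OsR498G1221708200.01 had 5.70, 6.44 and 6.62 CPM in WFB and RFB and 1.09, 1.504 and 2.19 CPM in R998 and R308, a log2 difference of 2.01 (SE 0.14, adjusted p = 3.95e-11). These genes were picked from called members whose libraries of the 2 sides do not overlap, so the lack of overlap follows from the choice.

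Members with low levels also differed between lines. OsR498G0307339700.01 had 1.44, 2.43 and 1.52 CPM in R308 young panicles, and of the 3 WR libraries 2 were at 0 and the third at 0.0269 CPM. OsR498G0917667700.01 had 0.927, 4.78 and 0.133 CPM in R998 and 0.194, 0.931 and 1.005 CPM in R308, with at most 0.129 CPM in any library of the other 7 lines and no count in RY308. The difference among lines had an adjusted p of 1.53e-07 for OsR498G0307339700.01 in edgeR's test. OsR498G0917667700.01 passed the filter on low counts only through R998 and R308, the lines where it is high. Its test is therefore not used as support, and its R998 libraries differed widely.

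The hybrids' mean deviation from mid-parent in young panicles was called for 13 of the 70 members, 1 higher and 12 lower, where 4.75% of all genes tested were called, 1.17% higher and 3.58% lower. The crosses were not alike. Median deviations of the members were 0.21 in WY998, -0.07 in WY308, 0.08 in RY998, -0.55 in RY308 and -0.54 in WR. The medians over all genes tested were between -0.03 and 0.00. Of the 13 called members, 6 had the same sign in all 5 crosses, all lower. Without the filter on low counts 9 were called, 1 higher and 8 lower. OsR498G0306732200.01 had a lowest, median and highest library of 0.0761, 0.244 and 0.407 CPM in hybrids and 0.109, 0.486 and 1.69 CPM in parents, a mean deviation of -1.38 (SE 0.26, adjusted p = 0.0028 in edgeR's test). OsR498G0307059100.01 had 0.0269, 0.191 and 1.01 CPM in hybrids and 0.0292, 0.364 and 3.16 CPM in parents, a mean deviation of -1.57 (SE 0.36, adjusted p = 0.01), but an adjusted p of 0.181 with a geometric mid-parent. The number called was 8 when any of 6 libraries was left out (WY998 replicate 5, WFB replicate 6, RFB replicates 5 and 6, and R308 replicates 5 and 6), and 5 with a geometric mid-parent, of which 2 were higher and 3 lower.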

How the data were processed

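RNA from 3 tissues of 9 rice lines was sequenced after depletion of ribosomal RNA with a stranded method, per the labels' protocols. The authors deposited a table of read counts per gene model and a table of FPKM values for 81 libraries. The submitters' processing notes name HISAT2, a read aligner. Not given in the sources used here were its settings, the counting program, the genome build and the annotation. The counts were used for every level and test, and the deposited FPKM values only to derive gene lengths.

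Counts per gene model outside block 00 were analysed by tissue in edgeR 4.0.16 (R 4.3.3) with TMM scaling, filterByExpr and the quasi-likelihood test with 1 mean per line. A gene was called at a Benjamini-Hochberg adjusted p under 0.05 over all genes tested. Deviations from mid-parent used an offset per gene, with parental weights in steps of 0.25. Differences between tissues were tested in 1 model of 54 libraries. The code was tested on simulated data.

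The members and lists were chosen with earlier results of these data known. Named genes followed a rule: the highest and lowest called members of each comparison, at 5 CPM or more for single crosses and for differences between parents whose libraries do not overlap, with the same sign in all 5 crosses for the mean deviation, and the extremes and edges of the tissue rule. Lists of photosynthesis, clock and cell type genes could not be read without gene names. Replicates differed by more than sampling noise, with a chi-square per degree of freedom of 5.02 to 293 over 81 pairs. Alternatives changed the scaling, the tool (DESeq2 1.42.0), the filter, block 00, the replicate block, the mid-parent and the libraries left out.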

Additional observations from a re-analysis of the deposited data

Results flagged for a closer look

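Filling panicles and seedlings differed under the same contrast for several results. The mean hybrid deviation differed between the tissues for 27 members and the differences among the 9 lines for 75, in tests of the difference itself with edgeR's quasi-likelihood test, where 15.3% and 39.4% of all genes tested were called.

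Among single genes, the deviation in filling panicles minus that in seedlings was 1.65 for OsR498G0100789400.01 (SE 0.39, adjusted p = 0.00316 in edgeR's test) and 1.601 for OsR498G0101694700.01. For the first gene the hybrids had a lowest, median and highest library of 3.39, 10.1 and 45.2 CPM in filling panicles against 2.64, 8.72 and 15.4 CPM in parents, and 2.12, 6.89 and 20.8 CPM in seedlings against 4.68, 13.4 and 36.3 CPM in parents. Its highest filling panicle library, at 45.2 CPM, was WY308 replicate 9.

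The difference was -1.604 for OsR498G0510625500.01 and -1.45 for OsR498G0612253000.01 (SE 0.34, adjusted p = 0.0025 in edgeR's test). The second gene had 2.2, 3.79 and 6.51 CPM in the hybrids and 2.72, 5.96 and 14.2 CPM in the parents in filling panicles, and 0.186, 2.93 and 6.03 CPM in the hybrids and 0.155, 1.42 and 5.14 CPM in the parents in seedlings. The differences among the 9 lines changed most clearly between the tissues for OsR498G0510625500.01, with an adjusted p of 3.34e-14, and for OsR498G1221020700.01, with an adjusted p of 5.99e-11.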

How the results depend on the processing

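Of 136 settings tried on counts, 118 gave a value within 1.5 times that reported. Leaving out single libraries gave these ranges of members called. Any difference among lines was called for 79 to 103 in filling panicles, 78 to 85 in seedlings and 50 to 57 in young panicles. WFB and RFB against R998 and R308 gave 52 to 66, 40 to 54 and 33 to 39 in the same order of tissues. The mean hybrid deviation gave 6 to 40, 37 to 52 and 8 to 16. In filling panicles WY998 gave 0, WY308 3 to 38, RY998 17 to 30, RY308 8 to 22 and WR 0 to 10, and in seedlings WY998 gave 0 to 1, WY308 0 to 6, RY998 2 to 10, RY308 2 to 8 and WR 11 to 25. The tests between tissues gave 23 to 37 for the mean deviation and 69 to 86 for the lines. They were not run with a geometric mid-parent or with DESeq2's test.

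DESeq2 called 31 members for the mean deviation in filling panicles (11 higher, 20 lower), and there 1 in WY998, 24 in WY308 (15 higher, 9 lower) and 4 in WR. In seedlings it called 2 in WY998, 15 in WY308 and 14 in RY308. With a geometric mid-parent the count was 4 in WY998 in each of the 2 tissues, and 2 in WR in filling panicles, 18 higher and 3 lower in WY308 there, 9 in WY308 seedlings (3 higher, 6 lower), 5 higher and 7 lower in RY998 seedlings, 4 higher and 5 lower in RY308 seedlings, 4 higher and 12 lower in RY308 filling panicles, and 5 for the mean deviation in young panicles. Without a filter on low counts the mean deviation in filling panicles gave 11 and WR gave 0. Without R308 replicate 9 and RY308 replicate 8, which have counts on many more gene models, WY308 gave 6 in filling panicles (1 higher, 5 lower) and the mean deviation 13 (1 higher, 12 lower). A 12-fold limit left 64 genes.

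Libraries with the same replicate number did not deviate together: their correlation over genes averaged -0.01 in seedlings and young panicles and -0.03 in filling panicles, and exceeded 0.1 in 28 to 30 of 108 pairs per tissue, so the number does not pair them. With the replicate block 9 members were called for the mean deviation in filling panicles and 8 for WY308 there, and every other count stayed within 1.5 times. Low counts limit young panicles, where 47 members were not tested, and seedlings, with the fewest counts outside block 00.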
